A study of Ovis aries with 16 samples.

Results

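Small RNAs in the serum of sheep were compared between samples taken before and samples taken after a Fontan operation, which connects the systemic veins to the lung arteries so that venous blood reaches the lungs without a pumping ventricle. The comparison used the 8 serum libraries, chosen by their titles, of the 16 libraries in the series. The other libraries came from serum extracellular vesicles and entered only an alternative fit. All sheep were adolescents whose hearts had both ventricles, and the operation was done in a single stage. The group before surgery (labelled as control) held 5 libraries, of animals A to E, and the group after surgery held 3 libraries, of animal D on day 6 and animals E and F on day 7. Only animals D and E were sampled at both times, and no sham-operated group was among the samples, so the operation, the time in care and any handling that differed between times cannot be told apart. A healthy sheep given this circulation is a model of the flow change and not of the heart disease that leads to the operation in patients. The letters were read as animals, and the labels say nothing more of how the samples relate. The p-values therefore reflect how these samples differ among themselves, part of which may be technical.

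MicroRNAs (miRNAs) are short RNAs that are cut from a hairpin by Drosha and Dicer, are held by Argonaute proteins and lower the translation and stability of messenger RNAs they pair with. They leave cells with Argonaute, in lipoproteins and in vesicles, and blood cells and the liver are large sources of those found in serum. PIWI-interacting RNAs (piRNAs) silence transposons in the germ line, and fragments of transfer and ribosomal RNA in blood are often given piRNA or high-numbered miRNA names. In serum, fewer cells of a type and less RNA released per cell cannot be told apart.

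The table held 1105 names, 1075 of miRNAs and 30 of piRNAs, all taken from human entries. In serum, 1044 of them had a count above 0 in at least 1 library, 61 were at 0 in every library and 453 were above 0 in all 8. The filter on low counts left 696 names to test. Sheep have an annotated gene of the same name for 103 of all names and for 77 of those tested, counted over the 106 miRNA genes in RefSeq's sheep table, and a name without such a gene may hold fragments of other RNAs.

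Library totals before surgery were 158011 in animal A, 552833 in B, 639207 in C, 76988 in D and 155815 in E. After surgery they were 517833 in D, 176789 in E and 262101 in F. The totals after surgery thus lay within the range of those before, and in animal D the library after surgery was the deeper of its pair. The widest 95% Wilson interval of a named share of counts had a half-width of 0.225 percentage points. Such intervals hold for counting error alone, because PCR copies of a molecule are counted as separate reads.

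The median count of the 696 tested names changed little with depth. It was 23, 38, 32.5, 43 and 22 in animals A to E before surgery and 51, 22 and 25 in animals D to F after it. The shallowest library, animal D before surgery, therefore had a median count above that of the deepest library. Depth went instead to a few names. The 10 most abundant names took 64.4%, 71.2%, 74.6%, 30.0% and 63.5% of counts in animals A to E before surgery, and 73.2%, 64.6% and 71.6% in animals D to F after it. Animal D before surgery stood apart with the flattest library of the 8.

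These whole-library measures overlapped between the times. Names above 0 numbered 771 ± 122 (SD, n = 5) before and 663 ± 157 (n = 3) after surgery, with p = 0.321 by a 2-sided exact permutation test. That number followed sets of libraries that share zeros, described below. The effective number of names, the exponential of the Shannon entropy, was 75.5 ± 97.4 before and 28.9 ± 5.43 after (exact permutation p = 0.607). The share of the 10 most abundant names was 60.8% ± 17.8 before and 69.8% ± 4.57 after (exact permutation p = 0.554). With 56 ways to assign 3 of 8 libraries, the smallest p such a test can give is 0.0179, and the adjusted p over the 4 measures was 0.81 for these 3 and 0.982 for the library total.

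Scale decides how the comparison reads, and shares of the library total and values scaled by TMM (trimmed mean of M-values, which sets the centre of most names equal) are therefore given side by side. TMM-scaled values are in CPM, counts put on a common library size. TMM factors were 1.17, 0.711, 0.469, 3.56 and 1.14 in animals A to E before surgery, and 0.734, 1.06 and 0.811 in animals D to F after it. The factor of animal D before surgery was the highest, so its counts are divided by the most relative to its total. The median log2 fold change of all 696 names, after against before, was −0.20 with TMM, −0.88 with library totals and −0.07 with factors from abundant names alone. Of the 696 names, 406 lay below 0 with TMM, 554 with library totals and 375 with factors from abundant names. A name's direction, and a list's count of members below 0, is read here against these centres and counts.

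**Figure D1:**
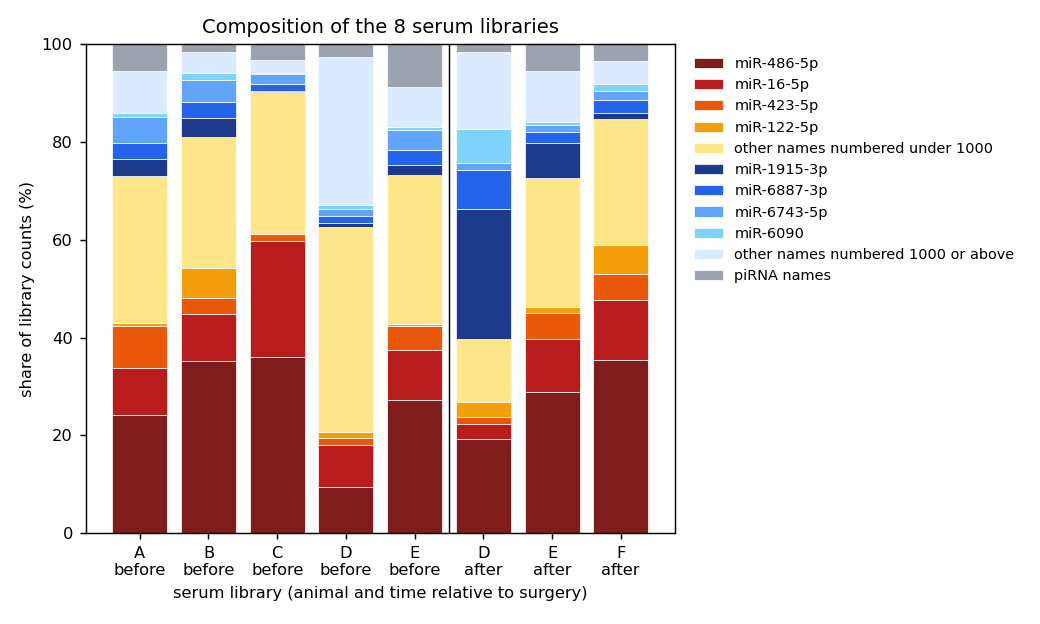
Each bar is 1 serum library, with animals A to E before and D to F after surgery, and the stacked colours give the percent of its counts in groups of names. The library of animal D before surgery is the flattest, and that of animal D after surgery holds the largest part in names numbered 1000 or above.

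No name passed the test between the times. By edgeR's quasi-likelihood test, 0 of 696 names had an adjusted p under 0.05 (0.0%), and the smallest adjusted p was 0.581. At an unadjusted p under 0.05, 29 names (4.17% of those tested) were higher and 25 (3.59%) were lower after surgery. DESeq2 and limma-voom also called 0. Without the library of animal D after surgery the same 2 counts were 10 and 116, and without that of animal F after surgery they were 34 and 10. The names described below are thus levels and differences in these libraries, none of them called.

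**Figure D2:**
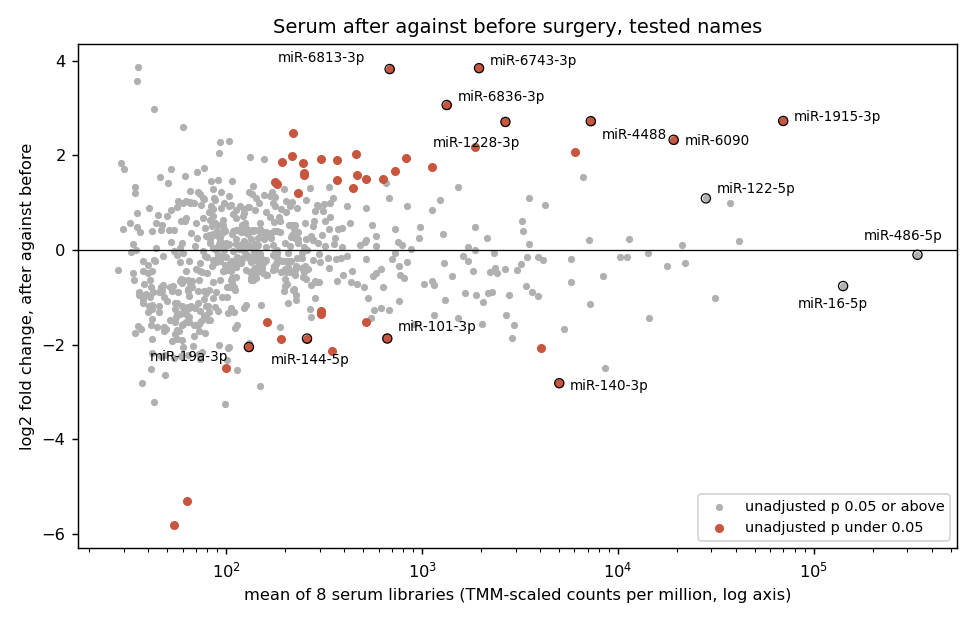
Each point is 1 of 682 tested names, with its mean TMM-scaled CPM over the 8 serum libraries on a log axis and its fitted log2 fold change after against before surgery. Names with an unadjusted p under 0.05 are red, named points are ringed, none passed the adjusted threshold, and the 14 tested names at 0 in all 3 libraries after surgery are left out.

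Red blood cell miRNAs took a large share of serum counts at both times. The share of the 9 listed members together was 36.9%, 50.9%, 68.7%, 21.6% and 41.7% in animals A to E before surgery, and 24.6%, 43.1% and 52.1% in animals D to F after it. The ranges overlapped, with the lowest value in animal D at either time. The fitted fold changes of the 9 members had a median of −1.44 with TMM and −1.06 with library totals, and all 9 lay below 0 with TMM, but 2 lay above 0 with library totals and 3 with factors from abundant names. Within animal D, 6 of the 9 were higher after surgery with TMM, but 3 were with library totals, and within animal E 3 and 2 were.

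miR-486-5p, an erythroid miRNA made from an intron of the ankyrin-1 gene, had the highest mean share over the 8 libraries. Its share was 24.1%, 35.3%, 36.1%, 9.43% and 27.2% in animals A to E before surgery, and 19.2%, 28.8% and 35.5% in animals D to F after it. The times overlapped, and animal D was lowest at each. miR-16-5p, which restrains cell cycle genes and abounds in blood cells, took 9.57%, 9.55%, 23.7%, 8.67% and 10.2% of counts before and 3.10%, 10.8% and 12.3% after. Animal C before surgery was far above the rest, and animal D after surgery far below.

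miR-144 and miR-451a are made from a single erythroid transcript that GATA1 switches on, and both gave low values after surgery. miR-144-5p had shares of 0.0146%, 0.0271%, 0.0415%, 0.0857% and 0.0167% in animals A to E before surgery, and 0.00811%, 0.00962% and 0.00725% in animals D to F after it. All 3 libraries after surgery lay below all 5 before, on TMM-scaled values as well. Its fitted log2 fold change was −1.87 (SE 0.716, adjusted p = 0.581 by edgeR, n = 3 and 5) on 17 to 42 counts per library after surgery. The other arm, miR-144-3p, had 4 to 34 counts after and 12 to 239 before (log2 fold change −1.89, SE 0.855). Its groups overlapped. Both miR-144-3p and miR-451a were chosen for the text after their values were seen.

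miR-451a, which skips Dicer and is cut by Argonaute 2, had shares of 0.168%, 1.07%, 1.88%, 1.18% and 0.251% before surgery and 0.145%, 0.198% and 0.229% after. Animal A before surgery lay within the range after it and animal E just above, and animals B, C and D before surgery were several times higher. The fitted log2 fold change was −2.49 (SE 1.16, adjusted p = 0.634 by edgeR). Ratios of counts within a library do not depend on scaling. There were 144, 32.9, 19.1, 7.99 and 108.5 reads of miR-486-5p per read of miR-451a in animals A to E before surgery, and 132.5, 146 and 155 in animals D to F after it. The 3 libraries after surgery were alike, whereas those before spread widely, and animal A before surgery lay within the range after it.

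The ratio of miR-451a to miR-23a-3p is widely used as a sign of red cell rupture in serum. It was 0.627, 1.996, 8.29, 1.29 and 0.776 before surgery and 1.22, 0.926 and 0.802 after. Animal C before surgery stood far above the other libraries, and why was not tested. Over the alternatives, which include leaving out that library, the log2 fold change of miR-451a ran from −2.94 to −0.49. The 2 arms of miR-486 kept a close ratio, with 25.5 to 35.9 reads of miR-486-5p per read of miR-486-3p before surgery and 30.7 to 35.4 after.

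The miR-17 to miR-92 clusters, which drive proliferation and are high in blood cell precursors, gave 9 of 11 tested members below 0 with TMM. Their median was −1.27 with TMM, or −1.17 without the member at 0 in all libraries after surgery, and −1.06 with library totals. Of all 696 names, 406 lay below 0 with TMM and 554 with library totals, under which 10 of the 11 members did. Among the members, miR-19a-3p was clearest. Its shares were 0.0266%, 0.0101%, 0.0138%, 0.0312% and 0.0186% in animals A to E before surgery, and 0.00464%, 0.00509% and 0.00153% in animals D to F after it. The groups did not overlap on either scale (log2 fold change −2.05, SE 0.712, adjusted p = 0.581 by edgeR), but these values rest on 4 to 24 counts after surgery. miR-93-5p and miR-25-3p, from an intron of the MCM7 gene, had log2 fold changes of −1.66 (SE 1.04) and −1.44 (SE 1.09). Both were highest in animal C before surgery, with 1.13% and 2.86% of counts, where the other libraries held 0.104% to 0.479% and 0.28% to 1.41%.

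Names whose values after surgery all lay below or all above those before depended on the scale. With TMM, 6 names were lower without overlap (0.862% of those tested) and 16 were higher (2.3%). With shares, 13 were lower (1.87%) and 3 were higher (0.431%). Lower on both scales were miR-19a-3p, miR-144-5p, miR-101-3p, miR-181a-5p and miR-181b-5p, while miR-606 was lower without overlap with TMM alone. Higher on both scales were miR-6836-3p, miR-1193 and miR-3164, of which miR-1193 and miR-3164 had 10 and 22 counts in animal B and 0 in the other 4 libraries before surgery. Animal B before surgery shared its pattern of zeros with animals E and F after it.

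Of these, miR-101-3p, a repressor of the histone methyltransferase EZH2, had 0.0462%, 0.0517%, 0.128%, 0.126% and 0.0398% of counts before surgery and 0.0116%, 0.0294% and 0.0256% after. Its lowest value before surgery, in animal E, was close to its highest after surgery, in the same animal. The log2 fold change was −1.87 (SE 0.839, adjusted p = 0.617 by edgeR). miR-181a-5p, which tunes T cell receptor signalling, had 0.0329%, 0.0255%, 0.0379%, 0.0922% and 0.0276% before and 0.0093%, 0.0187% and 0.0141% after (log2 fold change −1.30, SE 0.596). miR-181b-5p, made from the same transcript, had 12 to 66 counts before and 4 to 14 after. By share both members of this pair were highest in animal D before surgery, and with TMM in animal C before surgery.

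miR-140, a miRNA best known from cartilage that is also found in blood, gave lower values of both arms after surgery. It was chosen after its values were seen. miR-140-3p took 0.232%, 1.41%, 0.605%, 0.173% and 0.207% of counts in animals A to E before surgery, and 0.0334%, 0.126% and 0.123% in animals D to F after it. The shares did not overlap, and animal B before surgery was highest by far, but with TMM animal D before surgery (485 CPM) lay within the range after it (455 to 1515). The log2 fold change was −2.82 (SE 1.196, adjusted p = 0.581 by edgeR). The other arm, miR-140-5p, had 0.0652% to 0.0852% in animals A and B, 0.0135% to 0.0338% in animals C to E and 0.0027% to 0.0181% after surgery (log2 fold change −2.13, SE 0.883), with overlapping groups and a higher value after than before in animal E.

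Several other names were lower without overlap by share alone, and of these miR-30e-5p was chosen after its values were seen. miR-142-5p of blood cells had 0.22% to 0.583% before and 0.0755% to 0.182% after, and miR-30e-5p had 0.173% to 0.543% and 0.0506% to 0.158%. miR-27b-3p and miR-24-3p, made from neighbouring hairpins and found in vessel walls, had 0.0986% to 0.323% and 0.308% to 0.74% before, and 0.061% to 0.0744% and 0.15% to 0.291% after. With TMM the groups of these 4 names overlapped, with log2 fold changes of −1.38 (SE 0.733), −1.58 (SE 0.924), −1.06 (SE 0.656) and −0.89 (SE 0.706).

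**Figure D3:**
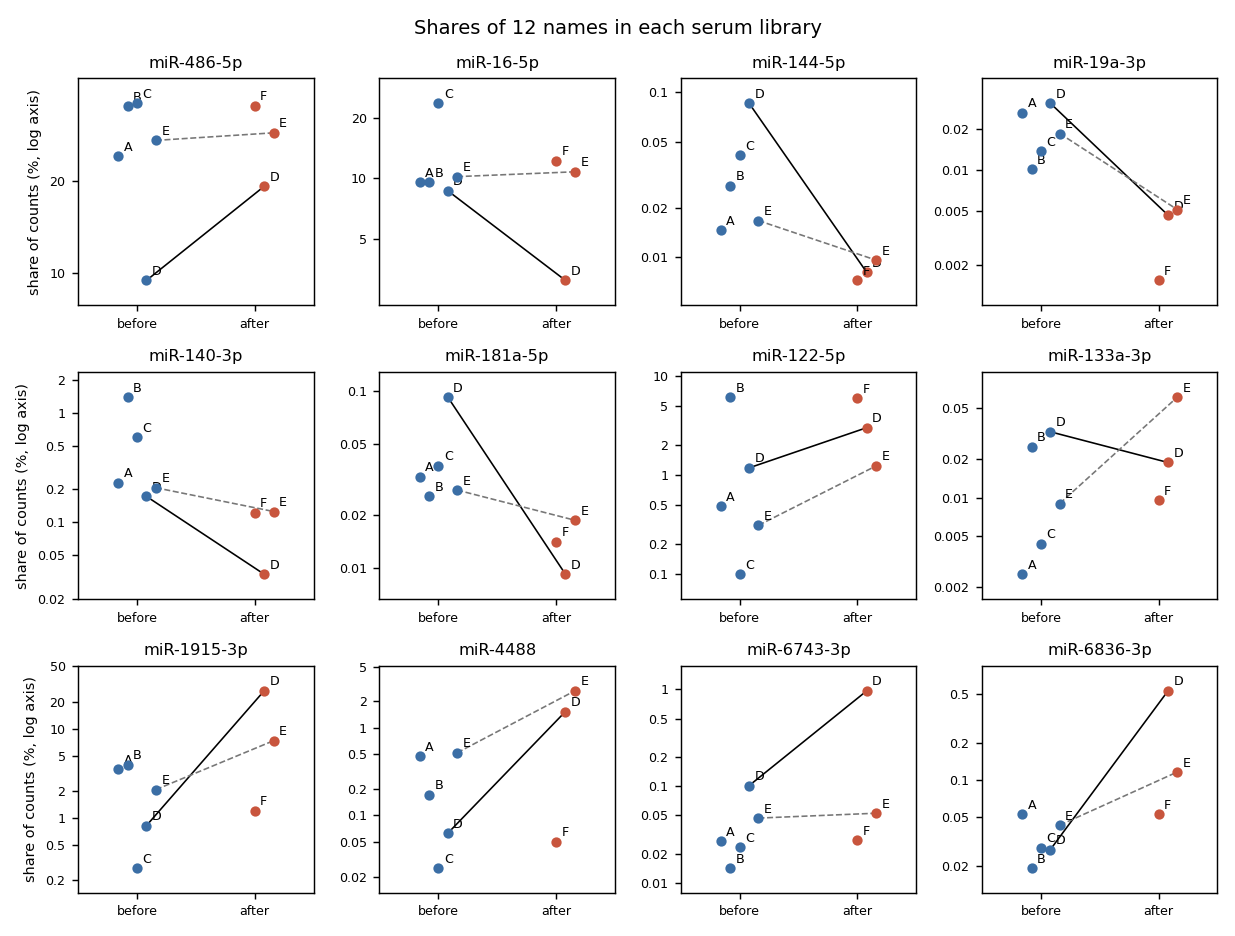
Each panel shows 1 name's share of counts (percent, log axis) in the 8 serum libraries, with blue points before and red points after surgery and the animal's letter beside each. Lines join the libraries of animals D (solid) and E (dashed). miR-144-5p, miR-19a-3p, miR-140-3p and miR-181a-5p were lower in all 3 libraries after surgery, and miR-1915-3p and miR-6743-3p were highest in animal D after surgery.

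Of the 19 lists, those of endothelium, platelet and the miR-23, miR-24 and miR-27 clusters took a lower summed share in each library after surgery than in any before it. The clusters summed to 0.727% to 2.26% before and 0.364% to 0.66% after. The summed shares of the other lists overlapped. Among single names, 13 of 696 (1.87%) were lower without overlap by share. The 8 endothelium members summed to 0.873%, 0.783%, 0.85%, 1.27% and 0.76% of counts in animals A to E before surgery, and to 0.247%, 0.464% and 0.611% in animals D to F after it. The groups did not overlap, with animal D lowest after surgery. On TMM-scaled values 7 of the 8 had a log2 fold change below 0 (median −0.81, beside −0.20 for all names). With library totals, the scale of the shares, the median was −0.98, near the −0.88 of all names. On that scale 554 of all 696 names lay below 0. miR-126-3p, which keeps vascular endothelial growth factor signalling active in endothelium, had 0.129% to 0.504% before and 0.023%, 0.131% and 0.163% after (log2 fold change −0.96, SE 0.741), and animal C before surgery lay among the values after it. miR-221-3p, an inhibitor of KIT, had 0.363% to 0.518% before and 0.169%, 0.182% and 0.267% after. Its shares did not overlap (log2 fold change −0.97, SE 0.814).

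Platelet names summed to 1.95% to 2.26% before surgery, a narrow range over animals whose totals differed widely, and to 0.736%, 1.51% and 1.26% in animals D to F after it. The groups did not overlap by share, but with TMM 2 of the 8 members lay above 0 (median −0.58), and 4 did with factors from abundant names. With library totals the platelet median was −0.69, above the −0.88 of all names. The 5 lymphoid members all lay below 0 with TMM (median −0.77) and with library totals (median −1.21), and 4 of 5 with factors from abundant names, while their summed shares overlapped, at 1.48% to 4.17% before and 0.943% to 2.57% after. Of 6 myeloid members 4 lay below 0 (median −0.22), close to the centre of all names. miR-223-3p, the main miRNA of neutrophils, had 2.12%, 0.279%, 0.498%, 1.04% and 2.52% before and 0.501%, 1.30% and 0.988% after, with full overlap. The 5 members of the miR-23, miR-24 and miR-27 clusters all lay below 0 under each of the 3 scalings (median −0.75 with TMM). Each was also lower after surgery in both animals D and E with TMM and with library totals. Of all 696 names, 324 were higher in animal D and 281 in animal E with TMM, and 89 and 262 with library totals. With factors from abundant names miR-23b-3p was higher after surgery in animal E (0.12).

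Liver and muscle names gave higher values in some animals. miR-122-5p, which makes up most of the miRNA of hepatocytes, took 0.484%, 6.15%, 0.1%, 1.18% and 0.312% of counts in animals A to E before surgery, and 3.02%, 1.24% and 5.96% in animals D to F after it. Animal B before surgery was the highest of all 8, and the other 4 libraries before surgery were below all 3 after it. The log2 fold change was 1.09 (SE 1.24, adjusted p = 0.968 by edgeR), and the lowest adjusted p in any alternative was 0.186, without animal B before surgery. Over the alternatives the log2 fold change ran from −1.02, with a term for sets of libraries that share zeros, to 3.76. Within animals it was higher after surgery in both, by 3.63 and 2.09 on the log2 scale with TMM in D and E, and by 1.35 and 1.99 with library totals. The other liver names named by the rule, miR-192-5p, miR-194-5p and miR-148a-3p, differed by 0.32, −0.09 and 0.45 in animal D and by 1.81, 1.62 and −0.08 in animal E, all with TMM. Of the 6 tested liver names 5 lay above 0 over all libraries with TMM (median 0.21) and 3 with library totals (median −0.10). Within animal D, 5 of 6 were higher after surgery with TMM but 1 of 6 with library totals, and within animal E 4 and 3 were.

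Among the 4 tested names of the muscle list, 3 had a log2 fold change above 0 (median 0.61 with TMM and 0.52 with library totals). Within animal D, 2 of the 4 were higher after surgery with TMM and 0 with library totals, and within animal E all 4 were on both scales. miR-133a-3p, which is shared by heart and skeletal muscle, had 4, 137, 28, 25 and 14 counts in animals A to E before surgery, and 97, 107 and 25 in animals D to F after it. Relative to the totals, animal E after surgery was highest with 0.0605%, and the rest overlapped (log2 fold change 1.29, SE 0.752, adjusted p = 0.925 by edgeR). miR-206, which is made in skeletal muscle, differed by 3.74 in animal E and by 0.33 in animal D with TMM, but by 3.64 and −1.94 with library totals (log2 fold change over all libraries 1.12, SE 0.919). miR-208b-3p, from an intron of the slow cardiac myosin gene MYH7, had 11 to 42 counts before and 21 to 31 after, and overlapped on both scales. miR-1-3p, the main miRNA of heart muscle, was listed at 0 in animals C and D before surgery and in animal D after it.

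Epithelial names split. miR-375, abundant in endocrine cells and gut epithelium, had 0.224%, 0.399%, 0.113%, 0.245% and 0.193% of counts before surgery and 0.188%, 0.838% and 0.431% after. By share animals E and F after surgery were highest, and animal D was within the range before. With TMM animal B before surgery (5613 CPM) lay above animal F after it (5315 CPM), with a log2 fold change of 1.09 (SE 0.778). miR-200c-3p, which holds epithelial cells in their state by repressing ZEB1, had 11 to 66 counts before and 34, 79 and 152 after (log2 fold change 1.98, SE 0.686, adjusted p = 0.581 by edgeR). Animals E and F after surgery were again highest, and this name was chosen after its values were seen. miR-205-5p of stratified epithelium went the other way, with 0.0728% to 0.519% before and 0.0415% to 0.119% after (log2 fold change −1.57, SE 0.892). For the whole list, 5 of 8 lay above 0 with TMM (median 0.41) and 4 of 8 with library totals (median −0.02).

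The remaining lists had TMM medians from −1.10 to 0.05, where that of all names was −0.20. With library totals their medians ran from −1.01 to −0.44, where that of all names was −0.88. Fibrosis names had a TMM median of −0.77 with 1 of 9 above 0. Their median was −0.85 with library totals, and −0.34 without both libraries of animal D, with 3 of 8 above 0. miR-21-5p, widely studied in fibroblasts, took 0.401% to 0.812% before and 0.119%, 0.645% and 0.666% after. Only the value of animal D after surgery left the range before it. The miR-15 and miR-16 family had a median of −1.10 with 1 of 4 above 0. Hypoxia names had a median of −0.32 (1 of 4 above 0), let-7 names −0.38 (4 of 9), miR-320 names −0.14 (1 of 5), the imprinted 14q32 cluster 0.05 (6 of 11), the 2 smooth muscle names −0.83 and the single neuron name −0.72. miR-210-3p, the classic target of hypoxia-inducible factor, had 28 counts in animal B and 0 in the others before surgery. After surgery it had 29, 1 and 17 in animals D to F. Animal B before surgery shared its pattern of zeros with animals E and F after it, so no change with time is read from these counts.

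**Figure D4:**
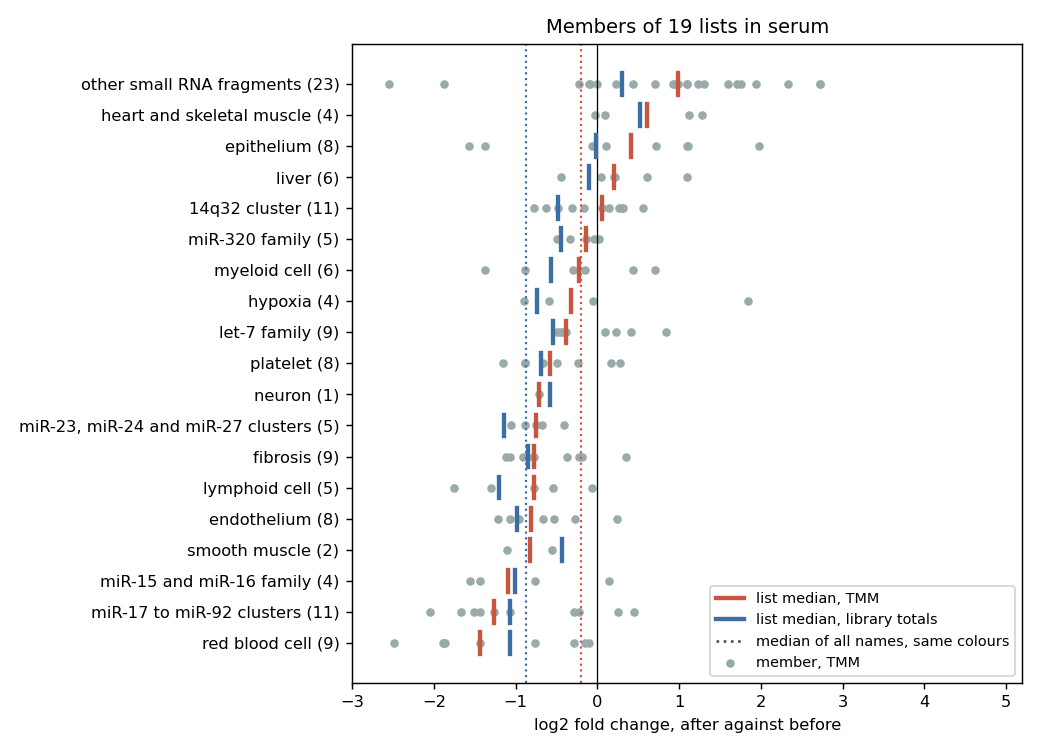
Each grey point is 1 tested member of a list, placed at its fitted log2 fold change after against before surgery with TMM, with the number of tested members in brackets. Bars give list medians with TMM (red) and library totals (blue), and dotted lines the medians of all 696 names, −0.20 and −0.88. miR-18b-5p, at 0 in all libraries after surgery, is not drawn but counts in its list's median. With TMM the red blood cell and miR-17 to miR-92 lists have the lowest medians and the fragments list the highest, and with library totals the order differs.

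Names that can match pieces of ribosomal and other abundant RNAs, such as miR-1915-3p, miR-4488 and miR-6090, had the highest list median with TMM. Together the names of this list, 23 of them tested, took 5.35%, 5.86%, 0.645%, 3.12% and 3.62% of counts in animals A to E before surgery, and 36.3%, 10.9% and 2.91% in animals D to F after it. Animals D and E were above every library before surgery, and animal F lay within their range. With TMM, 17 of 23 lay above 0 (median 0.98), 7 of them at an unadjusted p under 0.05, where 29 of all 696 names (4.17%) were higher at that p. With library totals 13 did (median 0.30). Without both libraries of animal D the median was −0.19, close to that of all names (−0.21).

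miR-1915-3p was the largest part of this sum in animals D and E after surgery, with 3.54%, 3.96%, 0.274%, 0.82% and 2.08% before surgery and 26.6%, 7.33% and 1.198% after. In animal D it went from 631 of 76988 to 137644 of 517833 counts, and in animal E from 3236 of 155815 to 12965 of 176789. Its value in animal F after surgery was below those of animals A, B and E before it. The log2 fold change was 2.73 (SE 1.14, adjusted p = 0.581 by edgeR). miR-4488 had 0.472%, 0.173%, 0.025%, 0.0623% and 0.519% before and 1.53%, 2.64% and 0.05% after (log2 fold change 2.72, SE 1.12), again with animals D and E high and animal F low. miR-6090 had 0.186% to 1.49% before and 6.91%, 0.482% and 1.37% after (log2 fold change 2.33, SE 1.02), with animal D alone outside the range before.

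Other high-numbered names were highest in animal D after surgery. miR-6743-3p had 0.0272%, 0.0143%, 0.0233%, 0.101% and 0.0468% of counts before and 0.966%, 0.0526% and 0.0279% after (log2 fold change 3.84, SE 1.03, adjusted p = 0.581 by edgeR). The other arm of this hairpin, miR-6743-5p, is among the 15 most abundant names and behaved differently. It took 5.38%, 4.597%, 1.98%, 1.31% and 4.13% before and 1.37%, 1.60% and 1.92% after. There were 198, 322, 84.8, 12.9 and 88.2 reads of the 5p arm per read of the 3p arm before surgery, and 1.42, 30.3 and 68.8 after, so the arm ratio of animal D was the lowest at each time. miR-6836-3p, with 0.0525%, 0.0194%, 0.0282%, 0.0273% and 0.043% before and 0.526%, 0.116% and 0.053% after, was above the range before in all 3 animals, but in animal F by a small margin over animal A (log2 fold change 3.06, SE 0.867, adjusted p = 0.581 by edgeR).

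Names numbered 1000 or above took 21.4%, 17.4%, 6.65%, 34.8% and 18.2% of counts before surgery and 58.75%, 21.99% and 11.8% after. They made up 26 of the 29 names with higher values at an unadjusted p under 0.05, and 371 of the 696 names tested. Names numbered under 1000 made up 15 of the 25 with lower values and 299 of those tested. Animal D after surgery had the highest share of high-numbered names and animal D before surgery the next.

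piRNA names took 5.62%, 1.68%, 3.22%, 2.58% and 8.70% before surgery and 1.61%, 5.51% and 3.53% after, with overlap. The most abundant, piR_019914, had 0.577% to 4.31% before and 0.561%, 2.22% and 1.39% after. piR_004987, chosen after its values were seen, had 0.759%, 0.317%, 0.465%, 0.226% and 0.796% before and 0.0736%, 0.128% and 0.15% after. Its shares did not overlap (log2 fold change −2.07, SE 0.901, adjusted p = 0.581 by edgeR). With TMM the value of animal D before surgery, 634 CPM, lay below all 3 values after it. piR_020582, also chosen after its values were seen, had 5 to 125 counts before and 4 to 10 after (log2 fold change −2.49, SE 1.07).

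The change within an animal could be read in D and E, with 1 library at each time and so without a replicate check. With TMM, 191 names were at least 2-fold higher after surgery in animal D (27.4% of those tested) and 182 at least 2-fold lower (26.1%). In animal E the counts were 119 (17.1%) and 206 (29.6%). In both animals together, 31 names were at least 2-fold higher (4.45%) and 63 at least 2-fold lower (9.05%). Part of such an overlap arises even between unrelated animals, and whether these counts exceed it was not tested. Names at 0 in a library entered these counts, and in animal E 151 names were at 0 only after surgery, against 52 only before, where in animal D the numbers were 34 and 18. Among names with at least 50 counts in 1 library of each pair, 14 were 2-fold higher in both animals and 3 were 2-fold lower.

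Shares of the total gave another picture for animal D. There 45 names were at least 2-fold higher (6.47%) and 524 at least 2-fold lower (75.3%), and in animal E 109 (15.7%) and 219 (31.5%). In both animals 14 were higher (2.01%) and 186 lower (26.7%). The median change was −0.09 with TMM and −2.36 with library totals on the log2 scale in animal D, and −0.24 and −0.35 in animal E. The scaling thus moved animal D by over 2 log2 units and animal E by little. Animal D before surgery had the lowest total and the highest TMM factor.

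Of 198 names with at least 50 counts in 1 library of each pair, 4 were at least 4-fold higher in both animals with TMM and none were at least 4-fold lower in both. They were miR-1228-3p, miR-4488, miR-122-5p and miR-1237-5p. miR-1228-3p, from an intron of the LRP1 gene, had 16 counts before and 3725 after surgery in animal D, and 125 and 1127 in animal E. As shares it had 0.254%, 0.0886%, 0.00720%, 0.0208% and 0.0802% before and 0.719%, 0.637% and 0.0942% after, so animals D and E were above every library before surgery and animal F was not (log2 fold change over all libraries 2.71, SE 1.02, adjusted p = 0.581 by edgeR). miR-1237-5p had 0.402%, 0.448%, 0.0422%, 0.187% and 0.302% before and 1.64%, 1.13% and 0.134% after, with the same order of animals (log2 fold change 2.06, SE 0.9498). With library totals miR-122-5p missed the 4-fold limit, at 1.35 and 1.99 in D and E, and miR-1237-5p missed it in animal E, at 1.91.

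**Figure D5:**
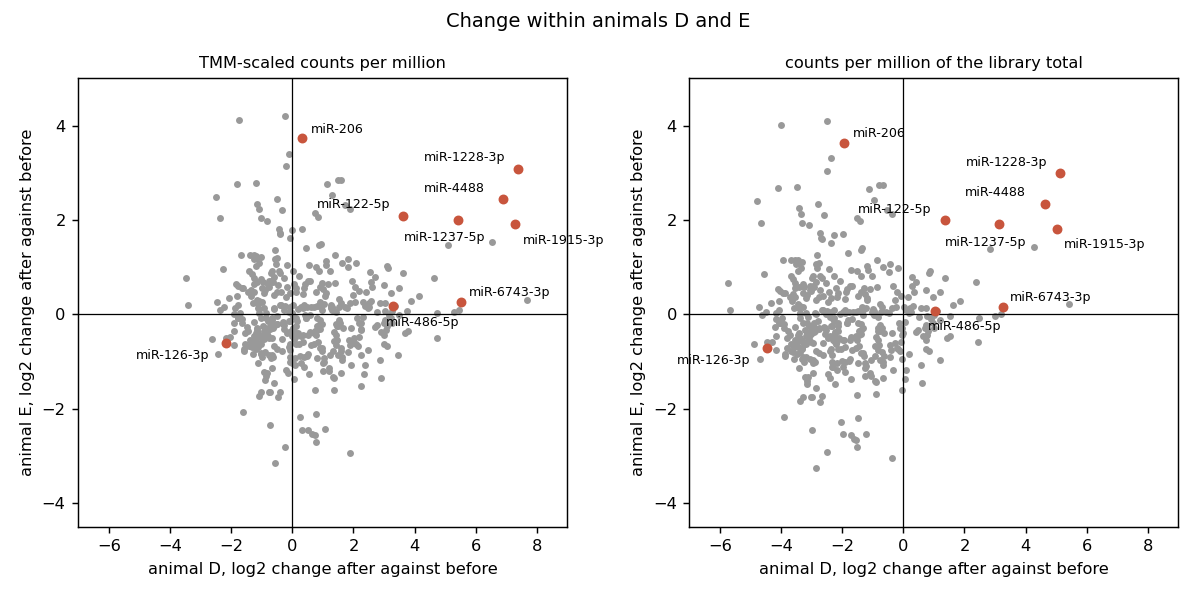
Each point is 1 of the 457 tested names above 0 in all 4 libraries of animals D and E, placed at its log2 change after against before surgery in D (horizontal) and E (vertical). The left panel uses TMM-scaled CPM and the right panel CPM of the library total. On the right nearly the whole cloud lies to the left of 0, while miR-1228-3p, miR-4488 and miR-1915-3p stay to the right and above in both panels.

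Zeros were shared by sets of libraries, and only the set of animal B before surgery crossed the times. Every other set held libraries of a single time, so set and time are largely confounded. Animals A and E before surgery shared a pattern, as did animals C and D before surgery, and animal B before surgery shared a pattern with animals E and F after it. Animal D after surgery stood alone. Names above 0 numbered 755 and 769 in animals A and E before surgery and 876 in each of C and D before it. Animal B before surgery had 577, animals E and F after it 569 and 577, and animal D after it 844. Animals D and E were each in a different set before and after surgery, so names at 0 at only 1 time cannot be told from the sets. Measured by phi, zero patterns of libraries in the same set correlated at 0.895 or more, and those of different sets at 0.483 or less. A count of 0 therefore means only listed at 0, and no upper limit is given for it. The 14 tested names at 0 in all 3 libraries after surgery were also all at 0 in animal B before it, and 11 of them are among the 25 lower names, so that no fold is given for these, miR-32-5p and miR-18b-5p included. The lower names with counts in every library, such as miR-19a-3p, miR-144-5p, miR-140-3p and miR-101-3p, do not involve zeros. That does not free them from other differences between the sets. Over the alternatives, the term for sets included, the values nearest 0 of these names were −1.09, −0.91, −0.36 and −0.75. The sets also bear on miR-1193, miR-3164 and miR-210-3p, which before surgery were above 0 in animal B alone. With the sets as a term, the fit compares animal B before with animals E and F after surgery, and the log2 fold change of miR-122-5p was then −1.02, that of miR-1915-3p −0.41, that of miR-6090 −0.97 and that of miR-1237-5p −0.03, so their direction turned.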

How the data were processed

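The deposited table gives counts of reads for each miRNA or piRNA, as whole numbers, and the counts were not changed before use. Per the labels' protocols, serum was spun to remove debris and loaded on a size-exclusion column, RNA was isolated with an RNeasy kit and libraries were made with the QIAseq miRNA kit. Per the submitters' processing notes, the human build hg19 was used and reads were written by bcl2fastq 2.20.0.422. The aligner, the counter, the annotation and any collapsing of molecular identifiers were not given in the sources used here. Human entries named sheep reads, so near-identical family members could share reads and are uncertain one by one. 2 names, miR-377-5p and miR-409-3p, each had 2 entries, which were kept apart.

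Groups came from the titles. The 8 serum libraries were fitted with edgeR 4.0.16 under R 4.3.3. Names were kept by filterByExpr at a minimum count of 10, TMM set the scale, and the quasi-likelihood test's p-values were adjusted by Benjamini-Hochberg over 696 names, with a threshold of 0.05. Adjusted p are from edgeR. Within-animal changes were log2 of (after + 0.5)/(before + 0.5) in CPM (counts scaled to a common library size), with no test. Shares are percent of a library's total. Exact permutation tests, 2-sided, compared the whole-library measures. Neither these tests nor the main fit used the pairing of animals D and E, whose libraries were treated as independent. The scripts were tested on simulated data. RefSeq's table of sheep genes (ARS-UI_Ramb_v3.0) was used for names only.

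Named were the 15 most abundant names, the 6 smallest p per direction, up to 4 members per list of 19 lists, names at least 4-fold higher or lower in both animals D and E, and up to 6 per direction without overlap between groups. Members and lists were chosen with earlier results of these data known. Alternatives were DESeq2 1.42.0, limma-voom (limma 3.58.1), RLE factors, library totals, other filters, all 16 libraries, the animal as a block, sets of libraries with shared zeros as a term, and each library left out. Factors from 61 names with at least 100 counts in every serum library, and leaving out both libraries of animal D, were added after seeing the data. The paired libraries deviated together in animal D (r = 0.376) but not in animal E (r = −0.213), over names. With 2 pairs this says little, and the pairing rests on the letters.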

Additional observations from a re-analysis of the deposited data

Results flagged for a closer look

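Among the 5 libraries before surgery, 68 measures, list shares and single names were checked for a library far from the other 4, and 15 were found. Chance alone flags about 1 in 20 such groups, and the measures are not independent, since a share that is high in a library lowers the others.

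In animal D before surgery the 10 most abundant names took 30.01% of counts, where the next lowest library had 63.5%, and the effective number of names was 248.6, where the next highest had 43.6. The same library was highest, and far from the next, for the endothelium list (1.27% of counts against 0.873%), the hypoxia list (0.756% against 0.376%), the miR-23, miR-24 and miR-27 clusters (2.26% against 1.14%) and the 14q32 cluster (0.439% against 0.201%). It also stood apart with 0.0753% for miR-1247-5p, 0.0987% for miR-1228-5p, 0.0922% for miR-181a-5p and 0.0325% for miR-181b-5p.

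Animal C before surgery stood apart with 0.701% for the smooth muscle list (next 0.269%), 23.9% for the miR-15 and miR-16 family (next 10.3%), 23.65% for miR-16-5p and 1.13% for miR-93-5p (next 0.479%). Animal B before surgery stood apart with 6.15% for miR-122-5p, where the next library had 1.18%.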

How the results depend on the processing

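The count of names past the adjusted threshold was 0 in every alternative run except without a filter on low counts, where 2 names passed, miR-6743-3p and miR-6813-3p (adjusted p = 0.0446 by edgeR). Both were high in animal D after surgery alone. miR-6743-3p had 5004 counts there, 93 and 73 in animals E and F after surgery and 43 to 149 before. miR-6813-3p had 1754 counts there, 25 and 30 in animals E and F after surgery and 6 to 89 before. Counts at an unadjusted p under 0.05 moved. Higher names, 29 as reported, were 51 with all 16 libraries, 9 with library totals, 13 with a term for the sets of libraries that share zeros, 14 without both libraries of animal D and 10 to 34 with each library left out. Lower names, 25 as reported, were 68 with DESeq2, 82 with all 16 libraries, 4 with limma-voom, 8 with a minimum count of 50, 14 among names above 0 in all 8 libraries, 41 without a filter, 10 with the shared zeros, 55 without both libraries of animal D and 10 to 116 with each library left out.

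With the animal as a replicate block, which compares the times within animals D and E, 0 names passed, with 11 higher and 4 lower at an unadjusted p under 0.05, and miR-25-3p turned to 0.39 on the log2 scale. The block changed no other direction among the 42 names whose fold was followed.

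Names 2-fold higher in both animals, 31 with TMM, were 14 with library totals and 14 with at least 50 counts, and names 2-fold lower, 63 with TMM, were 186 and 3. The library total, after minus before, ran from −97130 to 83000 counts with each library left out.

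With the term for shared zeros the log2 fold change turned for miR-6813-3p (−0.72), miR-122-5p (−1.02), miR-1237-5p (−0.035), miR-1915-3p (−0.41), miR-6090 (−0.97), miR-663a (−0.22) and miR-133a-3p (−0.021). miR-663a also turned without both libraries of animal D (−0.14) and ran from −0.041 to 2.22 with each library left out. Why these values moved was not tested. Of 911 alternative values of names 10 turned, and of 418 list medians 14 moved beyond the spread. With 3 libraries after surgery, small differences were not detectable, and names under about 50 counts rest on few reads.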
